A study of Mus musculus with 18 samples.

Results

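2,3-Benzofuran is a fused benzene and furan ring compound, and here it was given by stomach tube to female mice whose lungs were then profiled on expression arrays. The arrays described are the 3 of mice dosed with benzofuran (animals 6, 8 and 10) and the 3 of mice given corn oil alone (animals 22, 24 and 25), chosen by their titles, 6 of the 18 arrays in the study. All mice were B6C3F1 females that started at 5 weeks of age, were dosed for 13 weeks and were sampled at 18 weeks. Benzofuran was given at 240 mg/kg in corn oil, and the control mice received the same volume of corn oil, 5 ml/kg, by gavage on 5 days a week. Total RNA of the right lung lobe was measured on Affymetrix GeneChips, with 1 animal on each, and the deposited values were log2 signals. The other 12 arrays were of mice fed plain diet (feed control) or diet with NDA or NEDD (each 2000 ppm) or PCNB (8187 ppm), and they entered to estimate the spread between animals, to place the arrays and centre the lists, and for the feed control levels and the contrast with NDA. The labels name benzofuran and NDA as positive for lung tumours in long bioassays, and the question of the comparison is which lung transcripts differ after a short exposure to such a compound.

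Lung handles foreign compounds largely in its airway epithelium, where club cells hold cytochromes P450 that can turn furans and other aromatics into reactive epoxides and aldehydes. Glutathione S-transferases, epoxide hydrolases, quinone and carbonyl reductases and aldehyde dehydrogenases then conjugate or reduce such products. Many of these second-step genes are controlled by the transcription factor NRF2, which the adaptor KEAP1 normally holds for degradation and which, once released, binds antioxidant response elements together with small MAF proteins. Some of them, such as Nqo1 and Aldh3a1, also respond to the aryl hydrocarbon receptor.

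The tissue had the signature of lung on all 6 arrays. The signal of Sftpc, the surfactant protein of alveolar type 2 cells, lay between 14.54 and 14.63, and that of Scgb1a1, the main secretory protein of club cells, between 14.38 and 14.49. Benzofuran 10 stood apart from the other 17 arrays. Its mean correlation with them was 0.964, against 0.9832 to 0.9889 for the others, and its score on the first principal component (27.5% of the variance) was 46.6, against -11.8 to 7.8. The 3′ signal of its actin control probe sets exceeded the 5′ signal by 0.91 log2 units, against 0.33 to 0.73 elsewhere, a difference that measures RNA integrity and labelling. The RNA integrity number in the labels was 8.9 for this animal, 9.2 and 9.4 for benzofuran 6 and 8, and 8.7 and 8.8 for corn oil 24 and 25. At 6603 of the 13434 genes tested, benzofuran 10 lay outside the range of the other 17 arrays, while the other 5 gavage arrays did so at 616 to 1591 genes. Counts and most differences are therefore given with this array and, in parentheses or in words, without it.

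**Figure D1:**
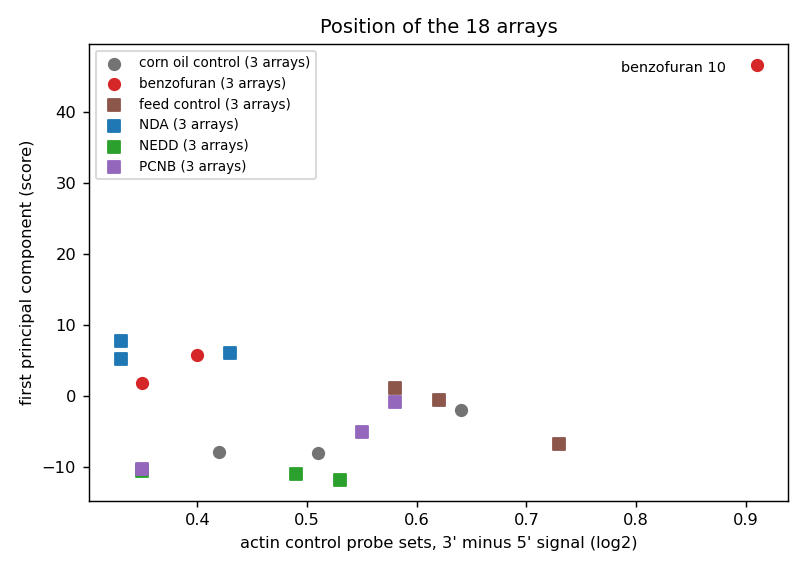
Each point is 1 of the 18 arrays, placed by the 3′ minus 5′ signal of its actin control probe sets (log2, horizontal) and its score on the first principal component (vertical), and coloured by group with 3 arrays each. Benzofuran 10 sits alone at 0.91 and 46.6, while the remaining arrays lie at 0.33 to 0.73 and below 8.

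With all arrays, 233 of 13434 genes (1.73%) passed limma's moderated test at an adjusted p of 0.05, of which 210 (1.56%) were higher and 23 (0.171%) lower after benzofuran. Without benzofuran 10, 67 genes (0.499%) passed, 61 higher (0.454%) and 6 lower (0.0447%). Both fits shared 62 genes (0.462%), 58 higher and 4 lower. These shares over all genes tested are the background for the counts of called genes in each list below. No gene called with all arrays turned its sign without benzofuran 10. Benzofuran 10 was beyond both of its group mates, in the direction of the call, at 208 of the 233 genes, and at 30 of them the log2 difference was at least 1.5 times smaller without it. At all 62 genes called in both fits the 3 benzofuran arrays did not overlap with the 3 corn oil arrays, a separation that 2335 of all genes tested (17.4%) also had. The rises called in both fits reached 2-fold at 21 genes and 4-fold at 3, Ces1g, Nqo1 and Sptssb, and no fall called in both reached 2-fold. Without benzofuran 10 the rises reached 2-fold at 12 genes and 4-fold at 1, Ces1g. The number of calls rested on single animals, control animals included. It was 37 without corn oil 22, 113 without corn oil 24, 316 without corn oil 25, 300 without benzofuran 6 and 1054 without benzofuran 8. Of the 62 genes, 32 kept their call whichever of the 6 arrays was left out, and all 32 were rises.

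**Figure D2:**
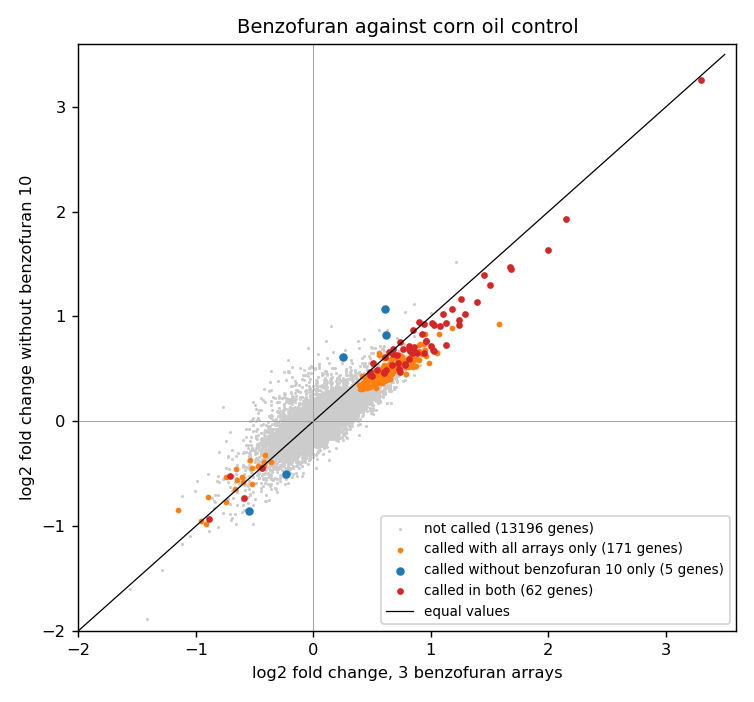
Each point is 1 of the 13434 genes tested, with its log2 fold change from all 6 arrays (horizontal) and without benzofuran 10 (vertical); the line marks equal values and colours mark the fits in which the gene was called. Among the rises called, most points lie below the line, so their fold change was smaller without benzofuran 10, and Ces1g stands alone at the upper right with 3.30 and 3.26.

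The largest rise was in a lipid and ester hydrolase. Ces1g, a carboxylesterase, had signals of 9.17, 8.76 and 9.06 on the benzofuran arrays (6, 8 and 10, the order used throughout) and 5.76, 5.74 and 5.59 on the corn oil arrays (22, 24 and 25). Every benzofuran array was thus far above every control, with no special place for benzofuran 10. The log2 fold change was 3.30 ± 0.12 (SE), or 9.82-fold, with a limma adjusted p of 1.26e-11, and 3.26 ± 0.13 without benzofuran 10. Its neighbours in the family were less affected. Ces1f had 7.32, 7.51 and 7.94 against 6.23, 6.98 and 6.30, a log2 fold change of 1.08 ± 0.18 (0.91 without benzofuran 10). Ces1e rose by 0.77 ± 0.17 with all arrays, but by 0.56 with an adjusted p of 0.153 without benzofuran 10, and its call was also lost without corn oil 22 (adjusted p = 0.143) or corn oil 25 (0.0651). In all 3 of 9 carboxylesterases tested rose, against 1.56% of all genes, and 2 did so without benzofuran 10, against 0.454%. Ces1d, the abundant lung carboxylesterase, differed by 0.18 ± 0.13 (0.15 without benzofuran 10) and was not called. The genes of this cluster are close copies, and how far their probe sets share signal was not tested.

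Nqo1, the quinone reductase that is a classical NRF2 and aryl hydrocarbon receptor target, was second. Its signals were 8.45, 7.88 and 8.84 after benzofuran and 5.92, 6.46 and 6.34 after corn oil. The groups were well apart, with benzofuran 8 lowest and benzofuran 10 highest of the treated animals. The log2 fold change was 2.15 ± 0.19 (4.43-fold, limma adjusted p = 1.34e-05), and 1.93 ± 0.18 without benzofuran 10. Together with Ces1g, Acsm1, Aldh3a1 and Serpind1 it was among the 5 genes called when the spread was estimated from the 6 gavage arrays alone. That fit had 1252 genes at an unadjusted p under 0.05.

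**Figure D3:**
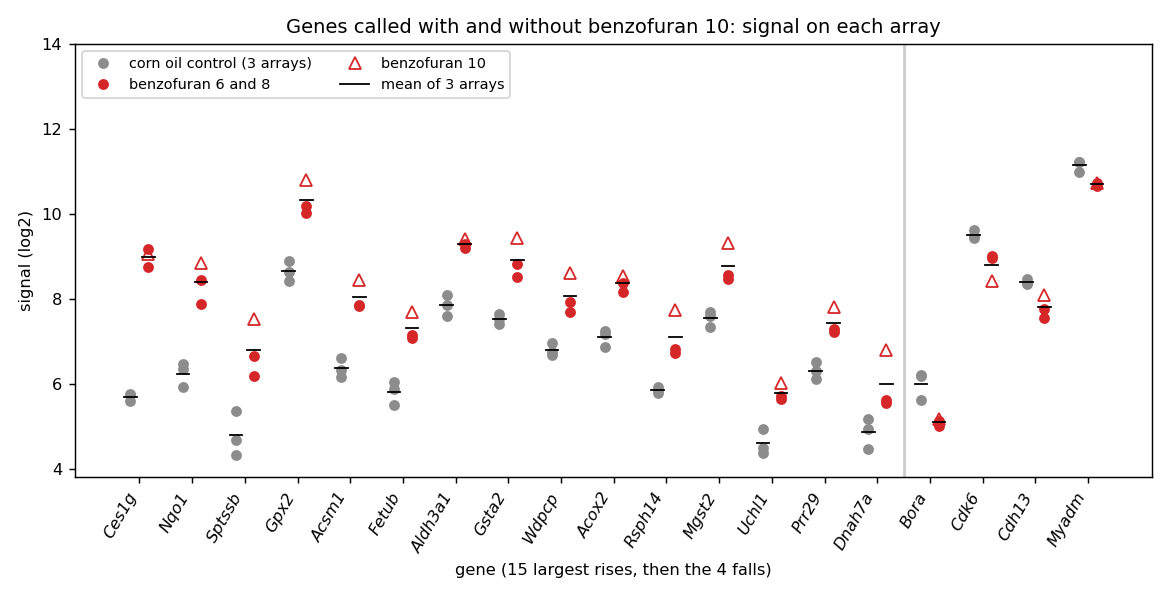
Signal (log2, vertical) on each of the 6 arrays for the 15 genes with the largest rises called in both fits and the 4 falls called in both (horizontal), with corn oil arrays in grey, benzofuran 6 and 8 as filled red circles, benzofuran 10 as an open triangle and short lines at the mean of 3 arrays. The groups do not overlap at any of these genes, and benzofuran 10 is the highest array at 14 of the 15 rises, all but Ces1g.

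Glutathione conjugation had the largest share of called genes among the lists examined. Of 20 glutathione S-transferases tested, 14 were higher and none lower, against 1.56% of all genes higher, and 8 were higher without benzofuran 10, against 0.454%. The median log2 fold change of the 20 was 0.66, and 0.48 without benzofuran 10, beside 0.05 and 0.02 over all genes tested. Gsta2, an alpha-class enzyme that detoxifies lipid peroxidation products, had 8.83, 8.51 and 9.43 against 7.41, 7.65 and 7.53. The treated arrays were all above the controls and benzofuran 10 was highest, and the log2 fold change was 1.39 ± 0.16 (1.14 without benzofuran 10). Gsta3, known for its action on mycotoxin epoxides, had 11.61, 11.33 and 11.53 against 10.66, 10.55 and 10.42. Its log2 fold change was 0.94 ± 0.10, and 0.93 ± 0.10 without benzofuran 10, so that array had little weight in it.

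The abundant family members moved by less than 2-fold and very evenly. Gstm1, a mu-class enzyme, had 12.59, 12.58 and 12.53 against 11.54, 11.74 and 11.86 (log2 fold change 0.85 ± 0.09, and 0.87 without benzofuran 10). Gstp1, the pi-class enzyme of airway epithelium, had 12.60, 12.54 and 12.54 against 11.79, 11.86 and 11.99 (0.68 ± 0.09, and 0.69 without benzofuran 10). In both genes the 3 treated animals lay closer together than the controls. Mgst2, a membrane-bound transferase, rose by 1.24 ± 0.19 (0.97 without benzofuran 10), and Gstz1, which also degrades tyrosine, by 0.76 ± 0.12 (0.69). Gstm2 and Gstt2 were called in both fits at 0.62 ± 0.11 and 0.60 ± 0.11, and both calls were lost without corn oil 22 (limma adjusted p of 0.0646 and 0.0748), that of Gstt2 also without corn oil 24 (0.0506). The other 6 that rose, Gsta4, Gstm3, Gstm6, Gstt3, Gsto1 and Mgst3, did so by 0.61 to 0.87, and none of these calls held without benzofuran 10, where adjusted p ran from 0.0952 to 0.207, or without corn oil 22. Of these, 5 (all but Gsto1) were also not called without corn oil 24 (0.0535 to 0.125), Gstm6, Gstt3 and Gsto1 not without corn oil 25 (0.0538, 0.0726 and 0.0519) and Mgst3 not without benzofuran 6 (0.0795). Gstm7 stood out within the family with a log2 fold change of -0.07 ± 0.16 (-0.01 without benzofuran 10). With probe sets averaged, Mgst3 differed by 0.39 (0.0616) and Gsto1 by 0.60 (0.0805), and neither was called. Gsta4, Gstt3, Gsto1 and Mgst3 were also not called with quantile normalization (0.0725, 0.0621, 0.0563 and 0.0663). Mu-class genes are close copies, and the chosen Gstm1 probe set (its name ends in x_at) is of the type that can match related transcripts, but all 3 of its other probe sets were also called when every probe set was tested.

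Glutathione itself is made by glutamate-cysteine ligase and glutathione synthetase and is used by glutathione peroxidases. Here 2 of 14 genes of synthesis and recycling rose with all arrays and 1 without benzofuran 10, with a median log2 fold change of 0.30 (0.25). The 1 was Gpx2, the glutathione peroxidase of epithelia, at 10.19, 10.02 and 10.79 against 8.43, 8.64 and 8.89. Its treated arrays were all more than 2-fold above the highest control array, and its log2 fold change was 1.68 ± 0.17 (3.20-fold, limma adjusted p = 4.79e-05; 1.45 ± 0.14 without benzofuran 10). Gss, glutathione synthetase, rose by 0.50 ± 0.10, with an adjusted p of 0.058 without benzofuran 10 and 0.111 without corn oil 22. A second, dimmer Gss probe set rose by 0.76 with all arrays. When every probe set was tested its adjusted p was 0.00446, and 0.00889 without benzofuran 10. With both probe sets averaged, Gss rose by 0.63 (0.00193). Gclc and Gclm, the subunits of the ligase, were not called at 0.10 ± 0.17 and 0.41 ± 0.10 (0.27 and 0.35 without benzofuran 10), although the Gclm arrays did not overlap (9.45, 9.51 and 9.65 against 8.94, 9.23 and 9.20). In the thioredoxin system 1 of 10 genes rose. This was Txnrd1, thioredoxin reductase, by 0.48 ± 0.10, with an adjusted p of 0.0513 without benzofuran 10 and 0.108 without corn oil 22, and its value was 0.32 (adjusted p = 0.209) when its probe sets were averaged.

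Reductases of quinones, carbonyls and aldehydes followed. The median log2 fold change of the 20 tested was 0.38 (0.23 without benzofuran 10). Of these, 6 were higher and none lower, against 1.56% of all genes higher, and 5 were higher without benzofuran 10, against 0.454%. Beside Nqo1 they included Cbr3, a carbonyl reductase, at 9.57, 9.52 and 10.37 against 8.65, 8.90 and 8.90. All treated arrays were above the controls and benzofuran 10 was highest, with a log2 fold change of 1.00 ± 0.17 (0.72 without benzofuran 10), and an adjusted p of 0.0587 without corn oil 22. Cbr1 rose by 0.81 ± 0.11 (0.72) and Akr1b8, an aldo-keto reductase of lipid aldehydes, by 0.86 ± 0.14 (0.71), and both kept their calls with any single array left out. Akr1c13 rose by 0.74 ± 0.16 and Akr1c19 by 0.91 ± 0.21, the latter not without benzofuran 10 (adjusted p = 0.157). Neither of the pair was called without corn oil 22 (adjusted p of 0.0898 and 0.161) or corn oil 24 (0.0963 and 0.0746), nor was Akr1c19 without benzofuran 6 (0.0673). Nqo2, the relative of Nqo1, was at 8.24, 8.21 and 8.29 against 8.09, 8.14 and 8.24, a difference of 0.09 ± 0.09 (0.07 without benzofuran 10), and Cbr2, a very abundant lung carbonyl reductase, differed by 0.02 ± 0.08 (0.02).

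**Figure D4:**
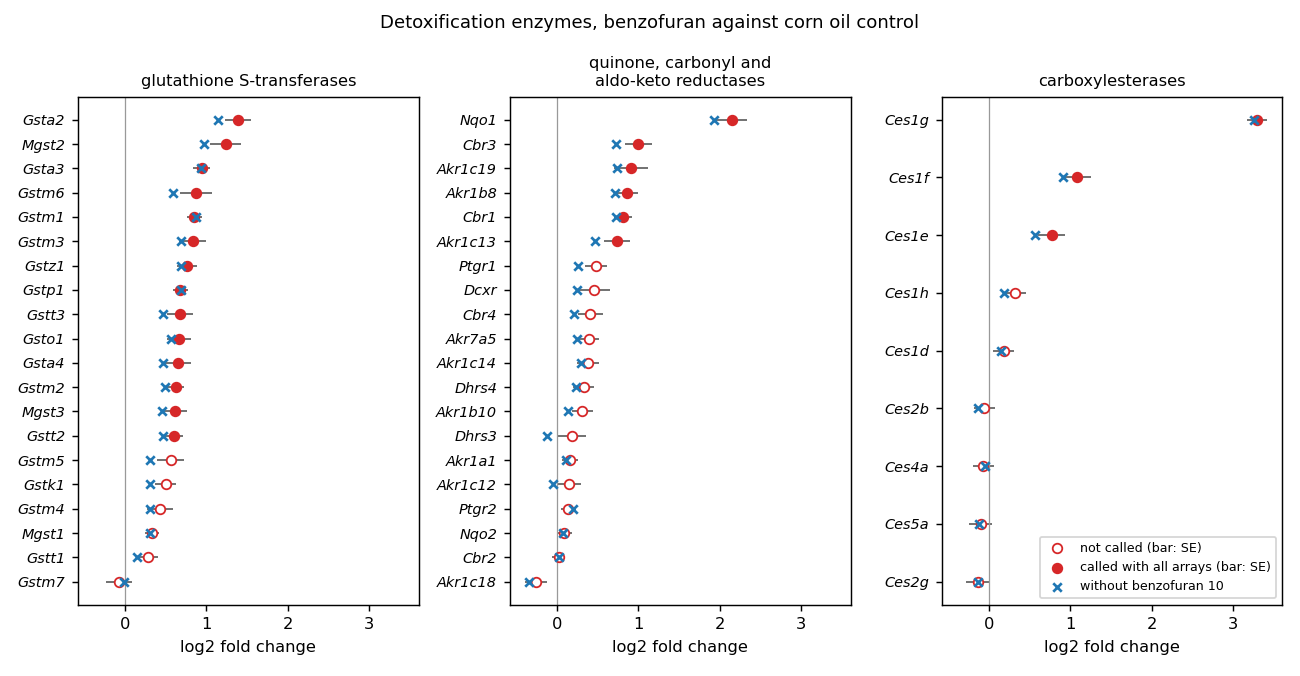
Log2 fold change (horizontal) of every tested member of 3 enzyme families (vertical), with circles for all arrays, bars for the standard error, filled where the gene was called, and crosses for the value without benzofuran 10. Of the glutathione S-transferases 14 of 20 are filled, of the reductases 6 of 20 and of the carboxylesterases 3 of 9, and Ces1g and Nqo1 lie apart from their families.

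Oxidation of aldehydes was represented by 3 rises among 17 genes tested, 2 of them without benzofuran 10. Aldh3a1, which clears aromatic and fatty aldehydes, had 9.30, 9.20 and 9.40 against 7.60, 8.10 and 7.85. The treated arrays lay close together and above all controls, and the log2 fold change was 1.45 ± 0.21 (2.73-fold, limma adjusted p = 0.0017; 1.40 ± 0.24 without benzofuran 10). Aox1, aldehyde oxidase, had 9.70, 9.79 and 9.66 against 8.86, 9.18 and 8.90 and rose by 0.74 ± 0.11 (0.76 without benzofuran 10). Aldh3b1 rose by 0.53 ± 0.11 with all arrays, with an adjusted p of 0.0775 without benzofuran 10 and 0.128 without corn oil 22. Ephx1, the microsomal epoxide hydrolase that opens arene epoxides, was the only 1 called of 9 epoxide hydrolases, glucuronosyl-, sulfo- and acetyltransferases tested. Its signals were 11.16, 11.21 and 11.34 against 10.59, 10.76 and 10.76, without overlap, and it rose by 0.54 ± 0.08 (0.49 without benzofuran 10).

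The first-step oxidases did not move with them. Of 24 cytochromes P450, flavin monooxygenases and their partners tested, none was called without benzofuran 10, and the 1 called with all arrays was Cyb5a, cytochrome b5, at 0.40 ± 0.10 (0.31). That call was lost without any of 4 other arrays (corn oil 22, 24 or 25, or benzofuran 6, adjusted p from 0.0675 to 0.123). Cyp2f2, the club cell enzyme that activates naphthalene and other aromatics, had 13.88, 14.07 and 13.87 against 13.94, 13.98 and 13.99, fully overlapping, with a difference of -0.02 ± 0.08 (0.01 without benzofuran 10). Cyp4b1, which activates furans, differed by 0.03 ± 0.10 (0.06). Cyp2e1, the ethanol-induced enzyme, was at 7.95, 8.28 and 9.28 against 8.00, 8.96 and 7.72, so that benzofuran 10 alone lay above the controls. Its difference was 0.28 ± 0.36, and -0.11 ± 0.36 without that array.

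Of 7 aryl hydrocarbon receptor pathway genes tested, only Nqo1 and Aldh3a1 were called, in both fits. Cyp1a1, its most responsive target, had 7.16, 6.87 and 7.13 after benzofuran. The corn oil arrays spread from 5.81 to 7.64 around these values, and the difference was 0.47 ± 0.44 (adjusted p = 0.593), and 0.44 ± 0.51 without benzofuran 10. Cyp1b1 differed by 0.18 ± 0.21 (0.02). Of 10 genes for NRF2 and its regulators none was called. Nfe2l2, which encodes NRF2, was at 10.35, 10.44 and 10.46 against 10.46, 10.56 and 10.22, and Keap1 differed by 0.17 ± 0.09 (0.11 without benzofuran 10). Other targets in the NRF2 field gave mixed values. Pgd, a pentose phosphate pathway enzyme that supplies NADPH, rose by 0.48 ± 0.09 (0.47 without benzofuran 10, adjusted p = 0.0883 without corn oil 22) as 1 of 7 NADPH genes, all 7 of which had positive differences. Blvrb, a biliverdin and flavin reductase, and Abcb6, a porphyrin transporter, rose by 0.82 ± 0.14 (0.67) and 0.96 ± 0.16 (0.77) as 2 of 10 genes of heme and iron handling, Abcb6 with an adjusted p of 0.0513 without corn oil 22. Hmox1, heme oxygenase, had 7.56, 8.10 and 8.51 against 7.71, 7.70 and 7.67, with benzofuran 6 below the controls and the remaining treated arrays above them, and was not called (0.36 ± 0.18, and 0.14 without benzofuran 10). Srxn1, sulfiredoxin, was not called at 0.58 ± 0.15 (0.38). Abcc3, an organic anion efflux pump, rose by 0.39 ± 0.09 as 1 of 6 efflux transporters, with an adjusted p of 0.112 without benzofuran 10, 0.142 without corn oil 22 and 0.0986 without corn oil 24.

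Promoter windows from RefSeq (build GRCm38.p6, 300 bases each, most of them before a gene's start) were searched on both strands for the core of the antioxidant response element, TGACNNNGC, and, separately, for the core of the aryl hydrocarbon receptor site, GCGTG, and matches of the one may overlap those of the other. At least 1 match lay in 12 of the 52 genes higher in both fits that had a window (23.1%), against 1809 of 10789 genes tested (16.8%) and 12.4% of all 32851 windows. GCGTG lay in 22 of the same 52 genes (42.3%), against 53.3% of genes tested. The windows of Ces1g, Nqo1, Gpx2 and Gsta2 held no match to the first core. Matches also lay in windows of genes that kept their calls with any single array left out. Windows of 4 of these genes are shown 5′ to 3′ on the gene's strand, with the matched letters in capitals. They hold the element's letters beside a rise measured here. Deup1, Fetub and Ikbkg met the same conditions and are not shown. The match starts 68 bases before the gene's start in Serpind1 and 121 in Gsta3. It starts 193 before in the first of 2 windows of Acox2, and in Pir 1 match starts 214 before and another 19 after. In Acox2 and Pir the matches read on the opposite strand, so the capitals show the core reversed and complemented.
Serpind1, chr16:17331121-17331420, plus strand: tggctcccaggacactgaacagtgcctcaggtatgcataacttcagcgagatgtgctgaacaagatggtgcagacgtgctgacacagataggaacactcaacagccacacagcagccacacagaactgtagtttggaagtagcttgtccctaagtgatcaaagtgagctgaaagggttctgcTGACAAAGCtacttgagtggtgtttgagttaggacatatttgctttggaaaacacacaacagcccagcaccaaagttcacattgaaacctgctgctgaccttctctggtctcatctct
Gsta3, chr1:21240335-21240634, plus strand: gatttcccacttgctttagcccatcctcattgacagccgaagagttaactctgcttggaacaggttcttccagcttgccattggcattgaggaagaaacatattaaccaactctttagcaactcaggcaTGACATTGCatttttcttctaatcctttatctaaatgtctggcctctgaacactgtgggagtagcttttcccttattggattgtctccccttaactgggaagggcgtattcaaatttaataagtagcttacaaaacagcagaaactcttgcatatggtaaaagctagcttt
Acox2, chr14:8258790-8259089, minus strand: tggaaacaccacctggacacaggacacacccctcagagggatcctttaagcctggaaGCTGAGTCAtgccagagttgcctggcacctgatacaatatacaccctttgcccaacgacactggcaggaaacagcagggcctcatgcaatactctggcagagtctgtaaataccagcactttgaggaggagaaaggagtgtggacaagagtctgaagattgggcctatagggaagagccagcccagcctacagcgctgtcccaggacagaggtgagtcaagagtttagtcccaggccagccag
Pir, chrX:164269181-164269480, plus strand: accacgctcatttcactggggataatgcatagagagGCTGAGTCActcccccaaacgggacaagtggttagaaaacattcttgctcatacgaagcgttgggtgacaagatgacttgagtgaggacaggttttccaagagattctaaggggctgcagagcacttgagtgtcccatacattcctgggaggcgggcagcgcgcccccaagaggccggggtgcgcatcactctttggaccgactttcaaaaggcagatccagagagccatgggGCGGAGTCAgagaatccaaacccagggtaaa
Pir, pirin, an iron-binding nuclear protein, had 9.06, 8.94 and 9.58 against 8.18, 8.43 and 8.08 and rose by 0.96 ± 0.14 (0.77 without benzofuran 10). Serpind1, heparin cofactor II, had 6.58, 6.64 and 6.87 against 5.55, 5.64 and 5.60 and rose by 1.10 ± 0.13 (1.02). In both genes the groups were clear of each other. Pir and Serpind1 were picked for their windows after their values were seen.

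Acyl-CoA metabolism contributed 2 large rises. Acsm1, a medium-chain acyl-CoA synthetase that also activates benzoate, had 7.85, 7.83 and 8.44 against 6.16, 6.33 and 6.62, a log2 fold change of 1.67 ± 0.19 (1.47 without benzofuran 10). Acox2, the peroxisomal oxidase of branched chains and bile acid intermediates, had 8.38, 8.16 and 8.55 against 6.86, 7.25 and 7.18, a log2 fold change of 1.26 ± 0.14 (1.17). They were the 2 called of 21 genes of fatty acid oxidation, in both fits, and the median of the 21 was 0.15 (0.13). None of 15 genes of cholesterol and fatty acid synthesis was called. Sptssb, a small subunit of the serine palmitoyltransferase that starts sphingolipid synthesis, had 6.66, 6.19 and 7.53 against 4.69, 5.37 and 4.32. It was higher on every treated array, and the log2 fold change was 2.00 ± 0.30 (1.63 ± 0.27 without benzofuran 10). A second, dimmer probe set differed by 0.75, and with both averaged the log2 fold change was 1.38. On 2 of its 3 control arrays the signal lay under the 40th percentile of all probe sets, which was 4.97 to 5.10, so the fold depends on dim signals. Its partner Sptlc3 rose by 0.68 ± 0.15, with an adjusted p of 0.153 without benzofuran 10 and 0.167 without corn oil 22, and it differed by 0.37 (0.0553) with probe sets averaged. The pair were the 2 called of 16 sphingolipid genes with all arrays, and Sptssb the 1 without benzofuran 10. Mthfd1, a folate enzyme of one-carbon transfer, had 11.17, 10.89 and 10.89 against 10.05, 10.09 and 10.12 and rose by 0.90 ± 0.10 (0.95 without benzofuran 10).

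Another 3 transcripts usually tied to liver were also higher. Fetub, fetuin-B, a secreted protease inhibitor, had 7.08, 7.14 and 7.70 against 5.51, 5.87 and 6.05, without overlap, and rose by 1.5 ± 0.18 (1.30 without benzofuran 10). Afp, alpha-fetoprotein, had 6.25, 5.49 and 7.83 against 5.07, 5.26 and 4.49. Benzofuran 10 was by far its highest array, the log2 fold change fell from 1.58 ± 0.37 to 0.93 ± 0.24 without it, and the call was lost (adjusted p = 0.0977), as it was without corn oil 22, 24 or 25 (0.066 to 0.12), with quantile normalization (0.055), with trend and robust fitting (0.0525) and with every probe set tested (0.0669). None of its 4 other probe sets was called, 1 of them differed by -0.09, and with probe sets averaged the log2 fold change was 0.78. Asgr1, a subunit of the asialoglycoprotein receptor, rose by 1.18 ± 0.25, with an adjusted p of 0.124 without benzofuran 10, 0.104 without corn oil 22 and 0.0558 without corn oil 24. The 7 liver and yolk sac genes tested had a median log2 fold change of 0.03 (0.00 without benzofuran 10). Alb, albumin, was at 4.79 to 5.03 after benzofuran and 4.61 to 5.23 after corn oil, at the dim end of the arrays, and Ttr and Apoa1 overlapped between the groups.

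Motile cilium genes had small positive differences as a group, and some of them rose. Of 35 ciliated cell genes tested, 34 had positive differences in each fit, against 8089 of 13434 over all genes (7462 without benzofuran 10), 7 were called with all arrays and 2 without benzofuran 10. Their median log2 fold change was 0.36 (0.31). Wdpcp, a planar polarity protein of cilium assembly, had 7.93, 7.69 and 8.61 against 6.74, 6.96 and 6.67 and rose by 1.29 ± 0.18 (1.02), although a second, dim probe set differed by -0.08 and the average of both was 0.60. Rsph14, a radial spoke protein, had 6.83, 6.72 and 7.74 against 5.85, 5.79 and 5.92 and rose by 1.24 ± 0.22 (0.92), with an adjusted p of 0.0513 without corn oil 22. In both genes benzofuran 10 was the highest array and the remaining treated arrays were still clear of the controls. Tekt4, Cfap52, Cfap126, Cdhr3 and Ift172 rose by 0.41 to 0.90 with all arrays, but had adjusted p from 0.0506 to 0.114 without benzofuran 10 and from 0.0898 to 0.156 without corn oil 22. Ift172 was also not called without corn oil 24 (0.0796) or benzofuran 6 (0.0505). Foxj1, the master regulator of motile cilia, was at 8.54, 8.93 and 8.91 against 7.92, 8.11 and 8.16, without overlap, and was not called (0.73 ± 0.19, adjusted p = 0.0605), nor without benzofuran 10 (0.67 ± 0.22, 0.227).

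Outside that list, Deup1, which builds the many basal bodies of ciliated cells, had 5.85, 5.99 and 6.10 against 4.94, 4.87 and 5.12 and rose by 1.01 ± 0.11 (0.94 without benzofuran 10). On corn oil 22 and 24 its signal lay under the 40th percentile of all probe sets, which was 4.97 to 5.10. Dnah7a, an inner arm dynein, rose by 1.13 ± 0.23 (0.73), with an adjusted p of 0.128 without corn oil 22 and 0.0535 without corn oil 24. The mean of the ciliated list on each array, with every gene centred on the 18 arrays, was 0.23, 0.28 and 0.60 after benzofuran and -0.23, 0.09 and -0.05 after corn oil. Benzofuran 10 was thus the highest, but benzofuran 6 and 8 were also above the controls. In whole lung RNA more cells of a type and more RNA per cell cannot be told apart, and the part of cell number in these values, or in those of the enzymes above, was not tested.

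Other cell types showed few calls. Of 20 club and secretory genes 1 was called, Cxcl17, a mucosal chemokine, at 1.07 ± 0.20 with all arrays and with an adjusted p of 0.0508 without benzofuran 10 and 0.0833 without corn oil 22. None of 16 alveolar type 2 genes, 12 alveolar type 1 genes or 20 endothelial genes was called in either fit, with medians of -0.09, -0.22 and -0.13 (-0.01, -0.06 and -0.09 without benzofuran 10). The 5 basal and neuroendocrine genes tested had a median of -0.26 (-0.29 without benzofuran 10), with 2 positive in each fit. The 1 called was Uchl1, a ubiquitin hydrolase that marks neuroendocrine cells. It had 5.71, 5.64 and 6.01 against 4.38, 4.50 and 4.93 and rose by 1.18 ± 0.13 (1.07), with all 3 control arrays under the 40th percentile of signal. None of the smooth muscle, muscle, adipocyte, pancreas, red cell and platelet, lymphoid, macrophage or MHC class II genes was called with all arrays. H2-DMb2, a peptide-loading chain of MHC class II that was on none of the lists, was among the 5 genes called without benzofuran 10 only. Its signals were 8.03, 8.00 and 8.93 against 8.95, 9.0 and 8.66, so that benzofuran 10 lay with the controls, and the difference was -0.55 ± 0.19 with it and -0.86 ± 0.13 without it. Its 2 other probe sets also had negative differences with all arrays (-0.27 and -0.58). Neither was called without benzofuran 10 when every probe set was tested (limma adjusted p of 0.147 and 0.0774).

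Neutrophil genes had negative differences that did not pass the test. Of 13 neutrophil and mast cell genes tested 1 had a positive difference in each fit and none was called, with a median of -0.39 (-0.50 without benzofuran 10). S100a8 and S100a9, the calprotectin subunits, differed by -0.67 ± 0.25 and -0.70 ± 0.26 (-0.89 and -0.94 without benzofuran 10). Interferon-induced genes had a median of -0.28 (-0.25), and 2 of 23 fell with all arrays, against 0.171% of all genes. These were Gbp3, a guanylate-binding protein, by 0.61 ± 0.13, and Oas3, a sensor of double-stranded RNA, by 0.42 ± 0.10, with adjusted p of 0.0995 and 0.101 without benzofuran 10 and 0.0925 and 0.196 without corn oil 22. Oas3 was also not called without corn oil 24 (0.077) or benzofuran 6 (0.0717). Its treated signals (5.02, 5.12 and 5.07) were close to the 40th percentile of all probe sets, which was 4.97 to 5.10. The mean of the interferon-induced list was -0.09, -0.10 and -0.18 on the benzofuran arrays and 0.11 to 0.15 on the corn oil arrays. On the feed control arrays it was -0.08 to 0.02.

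Matrix genes had mostly negative differences, larger with benzofuran 10 than without it. Of 22 genes of fibroblasts and fibrillar matrix 2 fell with all arrays, against 0.171% of all genes, and none without benzofuran 10. The median of the 22 went from -0.39 to -0.25. Their mean was -0.10, -0.04 and -0.46 on the benzofuran arrays, 0.13 to 0.18 on the corn oil arrays and -0.06 to 0.12 on the feed control arrays. Col1a2, a type I collagen chain, had 10.95, 11.08 and 10.40 against 11.41, 11.46 and 11.56, a difference of -0.66 ± 0.14, and Col3a1, the type III collagen chain, 11.53, 11.51 and 11.25 against 12.24, 11.99 and 12.00, a difference of -0.65 ± 0.13. All treated arrays were below the controls in both genes, with benzofuran 10 lowest. Without it the differences were -0.46 (adjusted p = 0.0755) and -0.56 (0.073). Both calls were also lost without corn oil 22 (0.0883 and 0.104), and that of Col1a2 without corn oil 24 (0.0682) or corn oil 25 (0.05) and when its probe sets were averaged (-0.34, adjusted p = 0.172). None of 16 basement membrane genes had a positive difference with all arrays, against 6 without benzofuran 10, and the median went from -0.32 to -0.04. Their mean on the arrays was 0.03, -0.01 and -0.61 after benzofuran and 0.03 to 0.14 after corn oil. The 1 that fell, Lama3, a laminin chain, by 0.54 ± 0.13, was not called without benzofuran 10 (0.164) or when any corn oil array or benzofuran 6 was left out (0.059 to 0.135), nor with probe sets averaged (-0.29, 0.106). Benzofuran 10 was also the array with the largest actin 3′ to 5′ difference. With that difference as a covariate, all 233 calls made with all arrays were kept, those of Col1a2, Col3a1 and Lama3 included. That covariate cannot separate RNA quality from other traits of the 1 array that stands apart on it. The part of RNA quality in these genes was not tested beyond this.

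**Figure D5:**
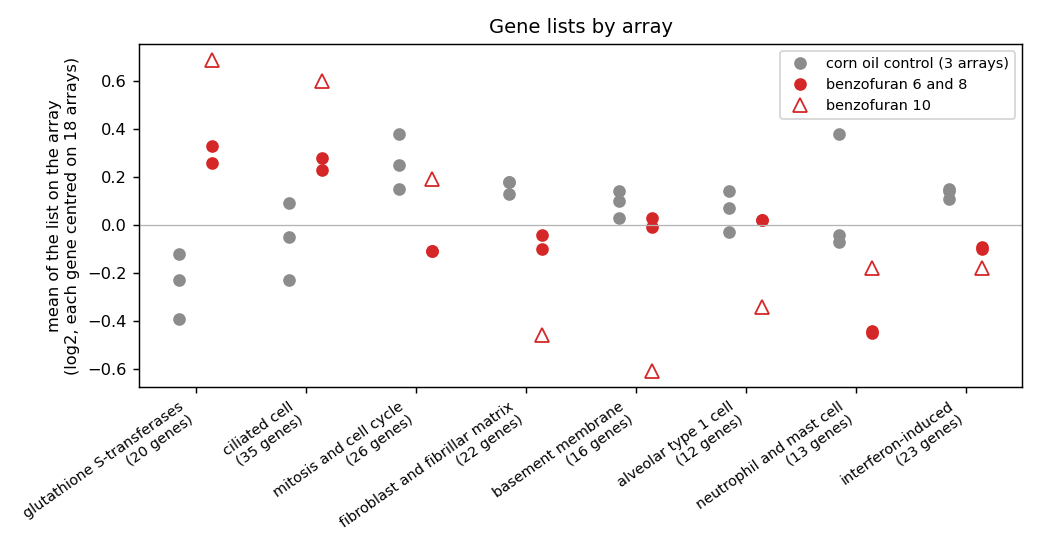
Mean of 8 gene lists on each of the 6 arrays (vertical, log2, each gene centred on its mean over 18 arrays), with corn oil arrays in grey, benzofuran 6 and 8 as filled red circles and benzofuran 10 as an open triangle. Glutathione S-transferases separate the groups on all arrays, from -0.39 to -0.12 in controls and 0.26 to 0.69 after benzofuran, whereas for basement membrane benzofuran 10 stands alone at -0.61.

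Falls were few. Of the 23 genes lower with all arrays 4 were also called without benzofuran 10. Bora, an activator of Aurora A at mitotic entry, had 5.02, 5.12 and 5.18 against 6.22, 6.18 and 5.62, a difference of -0.89 ± 0.17 (-0.93 without benzofuran 10). Its treated signals were close to the 40th percentile of all probe sets, which was 4.97 to 5.10, so the size of its fall depends on dim signals. Cdk6, a kinase of the G1 phase, had 8.97, 9.0 and 8.42 against 9.62, 9.44 and 9.48, a difference of -0.71 ± 0.14 (-0.52). Cdh13, T-cadherin, had 7.56, 7.77 and 8.10 against 8.34, 8.47 and 8.38, with benzofuran 10 nearest to the controls, a difference of -0.59 ± 0.13 (-0.73). Myadm, a membrane protein, fell by 0.44 ± 0.08 (0.45). None of the 4 calls held without corn oil 22, where limma adjusted p ran from 0.0887 to 0.104. Bora, Myadm and Cdh13 were also not called without corn oil 24 (0.0558, 0.0652 and 0.105), nor Cdh13 without benzofuran 6 (0.0779) or corn oil 25 (0.0502). With probe sets averaged, Cdk6 differed by -0.45 (0.0616) and Bora by -0.57 (0.0254).

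Cell division genes had mostly negative differences against the corn oil animals, and the levels in the feed control animals are given beside them. Of 26 mitosis and cell cycle genes 3 fell with all arrays, Bora, Cdk6 and Mki67, and 2 without benzofuran 10, with a median of -0.23 (-0.28). Mki67, the proliferation marker Ki-67, had 7.02, 6.98 and 6.98 against 8.14, 7.92 and 7.79, a difference of -0.96 ± 0.22. The treated arrays lay close together, and the fall had adjusted p of 0.106 without benzofuran 10, 0.153 without corn oil 22, 0.0796 without corn oil 24 and 0.0505 without benzofuran 6. The feed control arrays, of mice that were not gavaged, averaged 6.92 for Mki67, close to the benzofuran arrays. The mean of the list was 0.15 to 0.38 on the corn oil arrays, -0.11, -0.11 and 0.19 on the benzofuran arrays and -0.42 to -0.15 on the feed control arrays. Replication genes gave no call among 22 (median -0.06, and -0.16 without benzofuran 10), and DNA repair genes none among 27. Of 17 p53 targets only Ephx1 was called, and none of 20 unfolded protein response genes or 17 heat shock and immediate early genes was.

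Of 20 genes often altered in lung tumours 2 fell with all arrays and none without benzofuran 10. For Wwox, an oxidoreductase and tumour suppressor, the difference of -0.90 ± 0.17 came from 1 probe set. The 3 other probe sets of Wwox differed by 0.15 to 0.41, their mean with it was -0.03, and the call was lost without benzofuran 10 (adjusted p = 0.0734), corn oil 22 (0.0898) or corn oil 24 (0.0559). Cdh16, a cadherin, fell by 0.42 ± 0.09, with an adjusted p of 0.0884 without benzofuran 10, 0.126 without corn oil 22, 0.0702 without corn oil 24 and 0.0547 without corn oil 25.

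Some genes were called in only 1 of the fits. Of the 171 genes called with all arrays only, 152 rose and 19 fell. Their median log2 difference in size was 0.61 with benzofuran 10 and 0.47 without it, beside 0.86 and 0.70 for the 62 called in both. The 171 were chosen by losing the call, so a smaller size without that array is in part built in. Calls were also lost without corn oil 22, where 37 genes passed, and the part of benzofuran 10 in these losses was not tested. After Afp and Asgr1 the largest of these rises were Cxcl17, Meig1, a regulator of spermatid and cilium assembly, and Efcab10, at 1.05 ± 0.24 and 0.98 ± 0.23 for the latter pair (0.65 and 0.56 without benzofuran 10). Both were also not called without corn oil 22 (0.161 and 0.181) or corn oil 25 (0.0758 and 0.0509), and Efcab10 not without corn oil 24 (0.0796) or with quantile normalization (0.0583). Efcab10 had 7.49, 7.56 and 8.78 against 6.73, 7.09 and 7.07, with benzofuran 10 more than 2-fold above its group mates. The largest of these falls were Cep295, a centriole protein, at -1.15 ± 0.25, then Mki67, C2cd5 at -0.91 ± 0.20, Wwox, and Plat, tissue plasminogen activator, at -0.74 ± 0.16. For C2cd5 a second probe set of similar brightness differed by -0.02, and with probe sets averaged the difference was -0.31 (0.0754), while the averages of Cep295 and Plat were -0.65 and -0.38. None of Cep295, C2cd5 and Plat was called without corn oil 22 (0.12, 0.145 and 0.13) or corn oil 24 (0.1, 0.114 and 0.0826), nor C2cd5 and Plat without benzofuran 6 (0.0667 and 0.0607). Plat had 8.94, 9.29 and 9.19 against 10.03, 9.96 and 9.65, so that benzofuran 10 lay between its group mates, and its difference without that array was -0.77 with an adjusted p of 0.068. The rises called without benzofuran 10 only, Zbtb12, Fam81a and Cnnm4, had that array below all controls (Zbtb12 and Cnnm4) or just above them (Fam81a, 7.55 against at most 7.52). Cnnm4, a magnesium transporter, had 7.73, 7.58 and 6.57 against 7.14, 6.96 and 7.03.

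The contrast with NDA, the other compound labelled positive, was tested as the benzofuran effect (against corn oil) minus the NDA effect (against feed control). The routes and controls of the 2 compounds differ, so compound and route cannot be told apart. The effects differed at 39 of 13434 genes (0.29%), 12 higher and 27 lower for benzofuran, and at 61 without benzofuran 10. Among the genes called in both benzofuran fits, 5 differed in both fits, Ces1g, Deup1, Mthfd1, Rptoros and 2410004I01Rik. Ces1g rose by 3.30 after benzofuran and by 4.71 after NDA, a difference of -1.41 ± 0.17 (limma adjusted p = 0.000539). Deup1 rose by 1.01 after benzofuran and differed by 0.19 after NDA, a difference between the effects of 0.82 ± 0.16 (0.0262), and for Mthfd1 the values were 0.90, 0.13 and 0.77 ± 0.14 (0.0163). Nqo1, with log2 fold changes of 2.15 and 3.10, and Gpx2, with 1.68 and 2.45, were not called as differing with all arrays (adjusted p of 0.271 and 0.329). Without benzofuran 10 both were, by -1.17 (0.0423) and -1.0 (0.0243), as were Fetub by -1.38 (0.0119), Gsta2 by -0.85 (0.0185) and Cbr3 by -1.36 (0.000636), each a smaller rise after benzofuran than after NDA.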

How the data were processed

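Lung RNA of 18 mice (6 groups of 3 animals) was measured on Affymetrix arrays, 1 array an animal. The deposited values were log2 signals that the authors had already normalized, from 2.48 to 14.78 with array medians of 5.68 to 5.80, and no further scaling was applied. The normalization method is not given in the sources used here. Of 45101 probe sets, 34945 had 1 gene symbol, 932 several, 9160 none, and 64 were controls. Each gene was represented by its brightest 1-symbol probe set, averaged across the 18 arrays (18193 genes), and the 13434 above the 40th percentile on at least 3 arrays were tested. limma 3.58.1 (R 4.3.3) fitted 1 mean per group over all 18 arrays with Benjamini-Hochberg adjustment over all genes tested, and again without benzofuran 10. A gene is called at an adjusted p under 0.05. Fold changes are differences of mean log2 signals, ± is the standard error of the fit, and "adjusted p" is limma's throughout. On simulated data 93.1% of 2-fold and 63.3% of 1.5-fold changes were called with all arrays (5.1% of calls false), and 86.3% and 48.1% without benzofuran 10 (4.8% false). The simulated noise was normal, with 1 spread per gene on all 18 arrays and no outlier among them. These rates therefore do not cover an array such as benzofuran 10. The number of arrays limits the precision.

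The genes named were the 15 largest rises and the falls called in both fits without overlap, the 5 largest each way called in 1 fit only, each list's called members (otherwise up to 4 with the smallest p) and 8 genes each highest and lowest in benzofuran 10. Beyond that rule, background genes of the lists and genes in counts of 5 or fewer were named after their values were seen. The arrays, gene lists and tests were chosen with earlier results of these data known. Alternatives were quantile normalization, median centring, other filters, averaged or all probe sets, array weights, the actin 3′ to 5′ difference as a covariate, the 2 groups alone, and each array left out.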

Additional observations from a re-analysis of the deposited data

Results flagged for a closer look

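For 8 genes called against corn oil and named in the text, the benzofuran effect against corn oil differed from the NDA effect against feed control by limma's test of the difference. Ces1g had -1.41 ± 0.17 (adjusted p = 0.000539), with log2 fold changes of 3.30 after benzofuran and 4.71 after NDA. Asgr1 had 2.5 ± 0.36 (0.00223), with 1.18 and -1.32. Mki67 had -1.65 ± 0.30 (0.0208), with -0.96 and 0.69, so the effects had opposite signs in Asgr1 and Mki67. Txnrd1 had -1.06 ± 0.14 (0.000831), with 0.48 and 1.54. The calls of Asgr1, Mki67 and Txnrd1 against corn oil were lost without benzofuran 10 (adjusted p of 0.124, 0.106 and 0.0513). Mki67 averaged 6.99 after benzofuran, 7.95 after corn oil and 6.92 on the feed control arrays. With probe sets averaged, Txnrd1 differed from corn oil by 0.32 (0.209). The other 4 were called in both benzofuran fits and had larger effects after benzofuran, by 1.13 ± 0.17 for 2410004I01Rik (0.0039), 0.94 ± 0.16 for Rptoros (0.0139), 0.82 ± 0.16 for Deup1 (0.0262) and 0.77 ± 0.14 for Mthfd1 (0.0163).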

How the results depend on the processing

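The count of called genes moved most. With all arrays it was 233 and became 154 with every probe set tested, 5 with both groups alone in the fit, 1149 with array weights (which gave benzofuran 10 a weight of 0.12) and 734 with the actin difference as a covariate. Leaving out 1 array gave 37 to 1054. Without benzofuran 10 it was 67 and became 44, 1, 400 and 37 under the same settings in that order, and 13 to 148 with a further array left out, where a lone benzofuran array was assumed to vary like the other groups. It was 26 without corn oil 22, 13 without benzofuran 6, 25 without benzofuran 8 and 148 without corn oil 25. The 39 genes at which benzofuran and NDA differed became 158 with array weights, and 25 to 61 with 1 gavage array left out. Quantile normalization, median centring, trend with robust fitting, averaged probe sets and the other filters moved none of these counts past 1.5 times. Single genes were followed only through the alternatives of the fit with all arrays, each gavage array left out included. There no named gene that was called in either fit changed sign. Named genes stayed on their side of the threshold 924 times, lost a call 243 times and gained one 11 times. All 62 genes called in both fits kept their call under array weights and under the actin covariate with all arrays. Under the actin covariate without benzofuran 10, 31 of the 62 kept it. With both groups alone in the fit 5 of the 62 kept it, and 1 without benzofuran 10. No paired analysis was possible because each animal number occurs in 1 group. With 3 arrays a group, small changes of dim genes lie beyond these data.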

Other observations

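Platelet genes had positive differences that did not pass the test. The 7 erythroid and platelet genes tested had a median log2 fold change of 0.50 (0.40 without benzofuran 10), 6 of them positive. Their mean on the arrays was 0.09, 0.16 and 0.49 after benzofuran and 0.18, -0.34 and -0.25 after corn oil, so only benzofuran 10 lay above all controls. Pf4, platelet factor 4, had 9.47, 9.63 and 10.26 after benzofuran and 9.18, 9.01 and 9.24 after corn oil. Its difference was 0.64 ± 0.17 (limma adjusted p = 0.0575), and 0.41 (0.24) without benzofuran 10. Alas2, the red cell heme synthesis enzyme, overlapped between the groups.

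Clock genes split the corn oil arrays. Arntl, which encodes the clock activator BMAL1, had 8.26, 8.38 and 8.23 after benzofuran, and 8.37 on corn oil 22 but 6.78 and 6.73 on corn oil 24 and 25. Per3, a clock repressor, had 6.97 on corn oil 22 against 8.08 and 8.01. None of 18 clock genes was called.

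Benzofuran 10 was at least 2-fold above the mean of benzofuran 6 and 8 at 130 genes and at least 2-fold below it at 199, while benzofuran 6 and 8 differed that much from each other at 20. Tns1, a focal adhesion protein, had 12.60 and 12.75 on benzofuran 6 and 8 and 10.16 on benzofuran 10, and Sfpq, a nuclear splicing factor, had 10.36, 10.58 and 8.29. On the high side Mt2, a metallothionein, had 8.60, 8.50 and 9.93 and Rpl14, a ribosomal protein, 6.14, 6.17 and 7.46. None of these 4 genes was called in either fit.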
